A study of Mus musculus with 12 samples.

Results

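Livers of mice on a high-fat diet were compared here with livers of mice on chow, across both drinking-water treatments of the study. All 12 arrays of the series enter this comparison: the 6 whose titles name the high-fat diet, set against the 6 whose titles name normal chow. The mice were male C57BL6J, a common inbred strain, and 30 weeks old. Chow supplied 13.5% of energy as fat. The high-fat mice were moved at 17 weeks to diet D12451, which supplies 45%. Within each diet 3 mice received penicillin in the drinking water at 6.7 mg/L and 3 received none. The resulting 4 groups of 3 are named control chow, control high-fat, penicillin chow and penicillin high-fat. The diets were different products, so their fat content and their other ingredients cannot be told apart. Each sample is liver RNA on 1 Affymetrix array, and the titles number the biological replicates. The diet difference of a gene is the high-fat minus chow difference of log2 expression in control mice averaged with that in penicillin mice. A positive value means higher on high-fat diet, and 1 unit means 2-fold.

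The liver takes up fatty acids, burns them in mitochondria and peroxisomes, stores them as triglyceride in lipid droplets or exports them on lipoproteins. Nuclear receptors and SREBP factors set much of this programme: PPAR alpha drives fatty acid oxidation in fasting, PPAR gamma drives storage, and SREBP factors drive synthesis of sterols and fatty acids. The receptors CAR and PXR drive cytochrome P450 enzymes that clear drugs and steroids. In mice many P450 and transporter genes are also expressed differently in males and females, under the control of the pattern of growth hormone release.

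High-fat feeding changed a broad set of genes. Of 13788 genes tested with limma, 1997 passed an adjusted p of 0.05 (14.5%), 1328 of them higher (9.63%) and 669 lower (4.85%). Most differences were small: 373 of the called genes reached 1.5-fold, and 94 reached 2-fold, 74 higher and 20 lower. The 6 high-fat arrays all lay above the 6 chow arrays for 600 genes (4.35%) and all below them for 295 (2.14%), and 816 genes were both called and free of overlap. Of the called genes, 1317 were higher in both treatments, 667 were lower in both and 13 had opposite signs. Over all genes tested the median difference was -0.0084 and 47.7% were positive. The gene lists are to be read against these shares. How the list counts depend on the 3 arrays of low 18S signal described next was not settled. Without them penicillin chow rests on penicillin chow 1 alone, so the list counts and the averaged count of that fit are left out. In bulk liver, fewer cells of a type and less RNA per cell cannot be told apart.

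In a principal component analysis the first axis (36.3% of variance) placed chow arrays at -16.2 to -12.5 and high-fat arrays at 3.01 to 25.7. Penicillin chow 1 stood apart on the second axis, at -30.1 against -5.32 to 10.6 on the other arrays. The signal of the 18S control probe sets was 11.76 and 11.77 on penicillin chow 2 and 3 and 11.81 on penicillin high-fat 2, against 12.67 to 13.87 on the other 9 arrays. Of 14 hepatocyte markers 0 were higher and 2 lower, with a median of 0.00. Those were Cyp2f2, at -0.38, and Cps1, at -0.26. The fit called 1607 genes without penicillin chow 1 and penicillin high-fat 1, and 1859 with the 18S signal as a covariate. Without the 3 arrays of low 18S signal penicillin chow 1 is the only array of its group, so that count is not given.

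The largest rise was that of Cyp2b9, a cytochrome P450 that male mouse liver normally expresses far less than female liver. Its log2 values were 5.25, 7.23 and 5.60 in control chow and 5.95, 4.80 and 5.30 in penicillin chow. They were 9.14, 9.40 and 10.03 in control high-fat and 9.69, 10.88 and 11.18 in penicillin high-fat. Every high-fat array lay above every chow array. The difference was 4.37 ± 0.36 (SE of the fit, as throughout), or 20.6-fold (limma adjusted p = 7.01e-05). Its neighbour Cyp2b10, the classical target of CAR, moved the other way. It ran from 7.73 to 8.64 (median 8.04) on chow and from 6.05 to 6.66 (median 6.51) on high-fat diet, without overlap. The fall was 1.64 ± 0.16 (adjusted p = 0.000191), and its other probe sets ranged from -3.035 to -2.879. Cyp2b13, of the same cluster, ran from 5.09 to 5.51 (median 5.28) on chow, close to the filter level of 5, and from 5.05 to 6.62 (median 5.40) on high-fat diet, where penicillin high-fat 3 was highest. Its ranges overlapped and its difference was 0.28 ± 0.19 (adjusted p = 0.359), or 0.07 without penicillin high-fat 3. It was chosen after its values were seen, for its likeness to Cyp2b9.

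The 250 bases upstream of these 3 genes, from RefSeq (GRCm38.p6), are printed because the closest pair in sequence gave different calls. All 3 lie on the plus strand of chromosome 7, at chr7:26173159-26173408 for Cyp2b9, chr7:26061245-26061494 for Cyp2b13 and chr7:25897408-25897657 for Cyp2b10. Capitals mark the bases at which Cyp2b9 and Cyp2b13 differ.
Cyp2b9: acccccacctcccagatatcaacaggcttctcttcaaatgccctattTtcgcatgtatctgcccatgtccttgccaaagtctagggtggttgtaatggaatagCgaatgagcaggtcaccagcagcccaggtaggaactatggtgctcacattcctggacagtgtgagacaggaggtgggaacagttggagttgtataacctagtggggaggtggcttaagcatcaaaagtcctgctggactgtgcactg
Cyp2b13: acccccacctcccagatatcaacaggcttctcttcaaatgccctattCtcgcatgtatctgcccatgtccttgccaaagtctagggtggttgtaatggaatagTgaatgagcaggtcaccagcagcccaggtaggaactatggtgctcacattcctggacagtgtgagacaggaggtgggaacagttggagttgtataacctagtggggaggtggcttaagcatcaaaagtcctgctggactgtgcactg
Cyp2b10: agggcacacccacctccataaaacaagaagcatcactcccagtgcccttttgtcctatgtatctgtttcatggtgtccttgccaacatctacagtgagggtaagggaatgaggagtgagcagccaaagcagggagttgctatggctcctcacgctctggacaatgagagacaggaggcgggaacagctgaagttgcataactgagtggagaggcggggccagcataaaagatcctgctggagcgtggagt
Cyp2b9 and Cyp2b13 were identical at 248 of 250 bases (99.2%), with the substitutions T48C and C104T from Cyp2b9 to Cyp2b13, counted from 1 at the 5′ end. Cyp2b9 and Cyp2b10 were identical in 71.0% of the columns of their alignment. The transcripts are close relatives, and whether a probe set reads more than 1 of them was not tested.

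Most genes on the list of those known to be higher in female than in male liver rose in these males. Of 16 tested 11 were higher and 1 lower, 4 were negative, called or not, with a median of 1.27. The 11 had no overlap between diets, and the count was 11 whichever of the 12 arrays was left out. The organic anion transporter family member Slc22a29 was at 4.48, 5.42 and 5.57 in control chow and 5.18, 5.65 and 5.36 in penicillin chow, against 6.68, 7.18 and 6.91 in control high-fat and 8.97, 8.64 and 8.94 in penicillin high-fat. The high-fat arrays formed 2 levels, penicillin above control, both above chow. The difference was 2.61 ± 0.17 (adjusted p = 9.39e-06). Cyp17a1, a steroid hydroxylase, ran from 6.94 to 7.91 (median 7.42) on chow and from 8.75 to 9.84 (median 9.58) on high-fat diet, also without overlap, and rose by 1.93 ± 0.18 (adjusted p = 0.000177). The hydroxyacid oxidase Hao2 and the transporter family member Slc22a27 were above the filter level on fewer than 3 chow arrays, so they passed the filter through the high-fat arrays alone. Hao2 was at 4.25 to 5.09 on chow and 5.89 to 7.85 on high-fat diet, and Slc22a27 at 4.43 to 5.13 and 5.85 to 8.48. Of the other 14 members 9 were higher and 1 lower, with a median of 1.21. The peroxisomal fatty acid transporter Abcd2 rose by 1.85 ± 0.29, though its 3 other probe sets ranged from 0.00 to 2.41. The nucleotidase Nt5e rose by 1.23 ± 0.15, with 2 other probe sets from -0.02 to 0.07. Cyp3a44 was the member that fell, by 0.48 ± 0.11.

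Genes known to be higher in male liver fell: 11 of 15 were lower and 0 higher, with a median of -0.61. The oxysterol hydroxylase Cyp7b1 ran from 13.37 to 13.83 (median 13.46) on chow and from 11.90 to 12.88 (median 12.34) on high-fat diet. The ranges were apart and it fell by 1.16 ± 0.08 (adjusted p = 7.85e-06), its other probe sets ranging from -1.309 to -0.103. Cyp4a12a, a fatty acid hydroxylase, fell by 1.21 ± 0.19, Susd4, a complement regulator, by 0.97 ± 0.14 and the complement gene C6 by 0.84 ± 0.10. The steroid enzyme Hsd3b5 was at 13.01, 12.68 and 12.96 in control chow, 11.70, 12.88 and 12.87 in penicillin chow, 12.33, 12.63 and 12.22 in control high-fat and 7.15, 9.57 and 8.96 in penicillin high-fat. The low values were those of the penicillin high-fat mice, and control high-fat overlapped chow. It fell by 2.21 ± 0.35 on average (adjusted p = 0.00241), with -0.49 in control and -3.92 in penicillin mice. The glucuronosyltransferase Ugt2b38 fell by 2.20 ± 0.27, averaged from -0.95 and -3.46. In fits without 1 array 9 to 11 members were lower.

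For the growth hormone and insulin axis the share called was near that of all genes. Of 23 genes 1 was higher and 2 lower, with a median of 0.01. The growth hormone receptor gene Ghr was at 0.02 ± 0.07. Socs2, a feedback inhibitor of growth hormone signalling, was at 1.02 ± 0.36 (adjusted p = 0.0838). Igfbp3, a carrier of insulin-like growth factors, rose by 0.82 ± 0.10, its relative Igfbp2 fell by 0.52 ± 0.08, and Enho, which encodes a secreted peptide, fell by 0.90 ± 0.21.

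**Figure D1:**
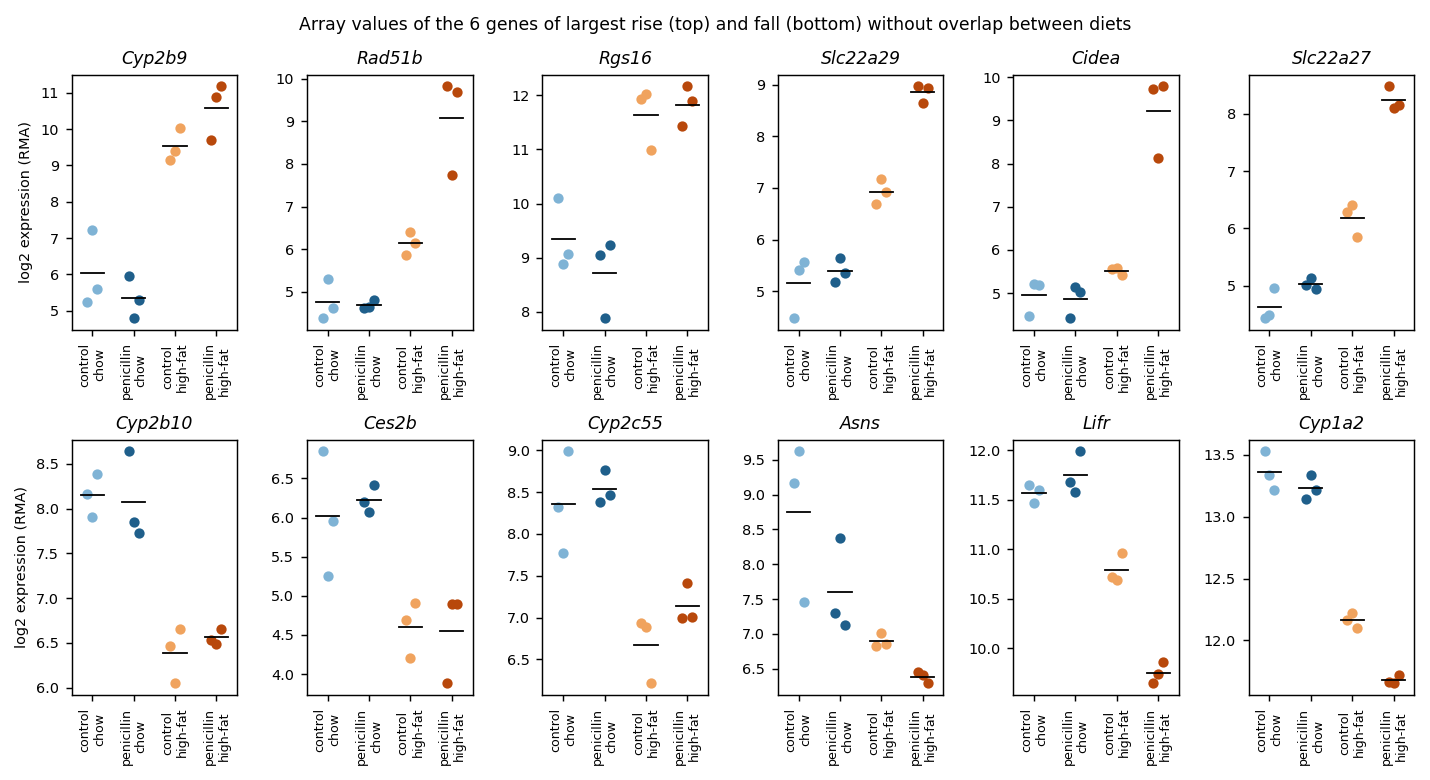
Log2 expression (vertical axis, scale differs by panel) of the genes of largest rise and fall among called genes without overlap between diets, by group; each point is 1 array and each line a group mean of 3. In every panel the 6 high-fat points lie outside the range of the 6 chow points.

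Cytochrome P450 genes and targets of CAR and PXR fell in 13 of 26 cases and rose in 2, with a median of -0.35. The count of lower members was 12 to 13 when 1 array was left out. Cyp1a2, which clears caffeine and many drugs, was at 13.53, 13.34 and 13.21 in control chow, 13.14, 13.33 and 13.22 in penicillin chow, 12.17, 12.22 and 12.10 in control high-fat and 11.67, 11.65 and 11.72 in penicillin high-fat. Each group was tight, and both high-fat groups lay below chow, penicillin lowest. It fell by 1.37 ± 0.06 (adjusted p = 9.13e-07). Cyp2c55 fell by 1.54 ± 0.19, Cyp2c54 by 1.21 ± 0.23 and Cyp2c23, an arachidonic acid epoxygenase, by 0.58 ± 0.06. The fall of Cyp2c54 was averaged from -0.665 in control and -1.747 in penicillin mice, with an interaction that was not called. The carboxylesterase Ces2a, which hydrolyses drug and lipid esters, fell by 1.21 ± 0.14, and its relative Ces2b was at 5.25 to 6.84 on chow and 3.88 to 4.91 on high-fat diet, where every array lay under the filter level. The members that rose were Cyp2c38 and the PXR gene Nr1i2, by 1.03 ± 0.12 and 0.43 ± 0.07. The CAR gene Nr1i3 was at -0.10 ± 0.08 (adjusted p = 0.398).

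Called genes of 1 P450 family thus moved in opposite directions. Cyp2c38 ran from 9.08 to 9.91 (median 9.63) on chow and from 10.26 to 10.84 (median 10.67) on high-fat diet, while its relative Cyp2c29, chosen after its values were seen, ran from 13.44 to 13.69 (median 13.65) and from 12.78 to 13.21 (median 13.13). Neither overlapped between diets, and Cyp2c29 fell by 0.54 ± 0.08 (adjusted p = 0.00134). Their upstream windows, printed because the responses were opposed, are chr19:39463076-39463325 on the minus strand and chr19:39286835-39287084 on the plus strand (RefSeq, GRCm38.p6).
Cyp2c38: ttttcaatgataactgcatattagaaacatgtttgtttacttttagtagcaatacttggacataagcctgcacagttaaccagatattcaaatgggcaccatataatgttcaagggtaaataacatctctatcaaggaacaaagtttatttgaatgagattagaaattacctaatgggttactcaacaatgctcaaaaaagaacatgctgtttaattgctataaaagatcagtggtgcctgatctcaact
Cyp2c29: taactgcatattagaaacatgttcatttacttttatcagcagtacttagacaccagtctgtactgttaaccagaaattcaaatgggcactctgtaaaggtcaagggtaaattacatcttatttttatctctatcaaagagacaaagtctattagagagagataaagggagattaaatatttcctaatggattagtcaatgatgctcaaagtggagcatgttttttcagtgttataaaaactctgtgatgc
They were identical in 68.8% of the columns of their alignment.

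Conjugation genes moved both ways. Of 26 glutathione genes and NRF2 targets 5 were higher and 5 lower, with a median of -0.01. The lower count was 3 to 5 in fits without 1 array, moving by over 1.5 times in 6 of the 12. The glutathione transferase Gsta2 fell by 1.35 ± 0.17, and the transferase Gstm3 by 0.94 ± 0.14, averaged from -1.71 in control and -0.18 in penicillin mice. The family members Gstk1 and Mgst3 rose by 0.44 ± 0.06 and 0.83 ± 0.13, the other probe set of Mgst3 standing at 0.03. The acetyltransferase family gene Nat8 fell by 1.09 ± 0.11. Nfe2l2, which encodes NRF2, was at 0.31 ± 0.12 (adjusted p = 0.0915).

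Lipid droplet genes and targets of PPAR gamma rose in 12 of 21 cases and fell in 1, with a median of 0.36, 0.19 in control and 0.51 in penicillin mice. Cidea, which promotes fusion of lipid droplets, was at 4.48, 5.22 and 5.18 in control chow and 4.42, 5.13 and 5.03 in penicillin chow, near or under the filter level. It was at 5.57, 5.59 and 5.41 in control high-fat and 9.73, 8.14 and 9.79 in penicillin high-fat. The penicillin high-fat mice stood far above all others, and control high-fat lay just above chow. The rise was 2.46 ± 0.27 (adjusted p = 0.000367). Its relative Cidec rose by 1.68 ± 0.28, though the diets overlapped, penicillin chow 1 being the highest chow array. The fatty acid transporter Cd36 ran from 9.21 to 9.60 on chow and was at 10.09, 10.09 and 9.93 in control high-fat and 11.38, 11.15 and 11.29 in penicillin high-fat. All high-fat arrays lay above chow, and the rise was 1.20 ± 0.08 (adjusted p = 7.85e-06). The lipoprotein receptor Vldlr passed the filter through the high-fat arrays alone, at 4.25 to 5.36 on chow and 5.80 to 7.41 on high-fat diet, its 5 other probe sets having differences from 0.04 to 1.35. Of the other 20 members 11 were higher and 1 lower, with a median of 0.33. The acyltransferase Mogat1 rose by 1.18 ± 0.15, the fatty acid carrier Fabp4 by 1.11 ± 0.16 and G0s2, an inhibitor of triglyceride lipase, by 0.98 ± 0.15. Hormone-sensitive lipase, Lipe, fell by 0.38 ± 0.08. The receptor gene Pparg was at 0.48 ± 0.21 (adjusted p = 0.155).

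Adipocyte markers were read beside this list, since the lists share genes. Of 8 tested 3 were higher, Cd36, Cidec and Fabp4, and 1 lower, Lipe, all of which the lipid droplet list also holds. The fat cell genes Adipoq and Lep stayed under the filter. The summed log2 level of the 8 was 68.7 to 72.0 in chow mice and 71.0 to 75.9 in high-fat mice. Their part in the result was not tested.

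Fasting targets of PPAR alpha rose in 10 of 18 cases and fell in 0, with a median of 0.62, and the count was 10 in each fit without 1 array. The hormone gene Fgf21 ran from 5.91 to 6.59 (median 6.41) on chow and from 7.52 to 9.997 (median 7.998) on high-fat diet. The ranges were apart and penicillin high-fat 1 was highest. The rise was 1.94 ± 0.28 (adjusted p = 0.00147). The pantetheinase Vnn1 rose by 1.52 ± 0.19, the coactivator Ppargc1a by 1.03 ± 0.15 and the thioredoxin-binding protein gene Txnip by 0.96 ± 0.10. The fatty aldehyde dehydrogenase Aldh3a2 rose by 0.65 ± 0.09 and monoglyceride lipase, Mgll, by 0.60 ± 0.08. Ppara itself was at 0.14 ± 0.08 (adjusted p = 0.274).

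Enzymes of fatty acid oxidation rose in 10 of 27 cases and fell in 0, with a median of 0.15 and 25 of 27 positive. The long-chain dehydrogenase Acadl ran from 11.73 to 11.94 (median 11.84) on chow and from 12.08 to 12.23 (median 12.16) on high-fat diet. The step was small, the ranges were apart and the rise was 0.33 ± 0.05 (adjusted p = 0.00252). The medium-chain dehydrogenase Acadm rose by 0.30 ± 0.06, the isomerase Eci1 by 0.36 ± 0.06, the reductase Decr1 by 0.28 ± 0.06 and the peroxisome division factor Pex11a by 0.56 ± 0.09. Cpt1a, the rate-limiting carnitine palmitoyltransferase, was at 0.12 ± 0.08 (adjusted p = 0.312). Of 41 respiratory chain subunits 35 were positive and 3 higher, with a median of 0.05. These were Sdhd, Ndufa5 and Uqcrq, at 0.24, 0.17 and 0.16, and the last 2 were each called in 2 of 12 fits without 1 array.

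Acyl-CoA thioesterases, which release fatty acids from coenzyme A, rose in 7 of 12 cases and fell in 0, with a median of 0.30. Acot3 ran from 6.47 to 8.41 (median 7.97) on chow and from 9.22 to 11.24 (median 9.78) on high-fat diet, control high-fat 3 highest, with no overlap and a rise of 2.11 ± 0.34 (adjusted p = 0.00252). Acot4 rose by 0.96 ± 0.14, Acot13 by 0.61 ± 0.09, Acot9 by 0.56 ± 0.12, Acot2 by 0.51 ± 0.06 and Acot12 by 0.28 ± 0.06. Several of these genes are close paralogs, and sharing of signal between their probe sets was not tested.

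Desaturases and elongases, which make long and unsaturated fatty acids, rose in 5 of 14 cases and fell in 0, with a median of 0.13. The count was 5 in each fit without 1 array. The elongase Elovl5 ran from 12.65 to 13.38 (median 12.83) on chow and from 13.51 to 14.06 (median 13.79) on high-fat diet. The ranges were apart and the rise was 0.89 ± 0.10 (adjusted p = 0.000577). The elongase Elovl2 rose by 0.68 ± 0.08, and the polyunsaturated fatty acid desaturases Fads2 and Fads1 by 0.70 ± 0.11 and 0.58 ± 0.08. Their differences were 0.76, 0.77 and 0.65 in control mice and 0.60, 0.63 and 0.51 in penicillin mice. Scd1, the stearoyl-CoA desaturase, rose by 0.31 ± 0.06 on its brightest probe set, and its other one stood at 0.94.

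Fatty acid synthesis genes rose in 6 of 17 cases and fell in 1, with a median of 0.32. Malic enzyme, Me1, which supplies NADPH, rose by 0.95 ± 0.17 and pyruvate kinase, Pklr, by 0.64 ± 0.12. The acetyl-CoA carboxylases Acacb and Acaca rose by 0.69 ± 0.17 and 0.39 ± 0.10, with other probe sets at -0.12 and -0.12, and Acaca was called in 7 of 12 fits without 1 array. Pgd of the pentose phosphate pathway rose by 0.47 ± 0.10. Mid1ip1, an activator of acetyl-CoA carboxylase, fell by 0.56 ± 0.14. The regulators Srebf1 and Mlxipl, which encodes ChREBP, were at -0.48 ± 0.20 (adjusted p = 0.133) and -0.07 ± 0.08 (adjusted p = 0.64).

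Glycerolipid and phospholipid synthesis genes rose in 7 of 20 cases and fell in 0, with a median of 0.17. The phosphatidate phosphatase Lpin1 was at 11.20, 11.05 and 9.61 in control chow and 10.98, 10.44 and 10.51 in penicillin chow, and at 12.67, 13.04 and 12.18 in control high-fat and 12.04, 12.73 and 11.95 in penicillin high-fat. Both high-fat groups lay above chow and overlapped each other. The rise was 1.80 ± 0.27 (adjusted p = 0.00173). Its relative Lpin2 rose by 0.67 ± 0.12, the acyltransferase Gpat3 by 0.91 ± 0.22 and the choline kinase Chkb by 0.44 ± 0.09.

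Of 18 lipoprotein genes 5 were higher and 1 lower, with a median of 0.06, and 3 to 4 were higher in fits without 1 array. Apoa4, an apolipoprotein of triglyceride-rich particles, ran from 10.06 to 12.35 (median 10.41) on chow and from 12.38 to 13.76 (median 12.92) on high-fat diet. Penicillin chow 1 was the highest chow array, just under the lowest high-fat one. The rise was 2.32 ± 0.30 (adjusted p = 0.000863), and the other probe set stood at 2.62. Apoc2, the cofactor of lipoprotein lipase, rose by 0.73 ± 0.07 and Tm6sf2, a factor in lipoprotein secretion, by 0.65 ± 0.11. Apoa5 and Apoc4 were higher by 0.21 ± 0.06 and 0.15 ± 0.04 and Apom lower by 0.22 ± 0.06, and these were called in 3 of 12, 0 of 12 and 6 of 12 fits without 1 array.

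**Figure D2:**
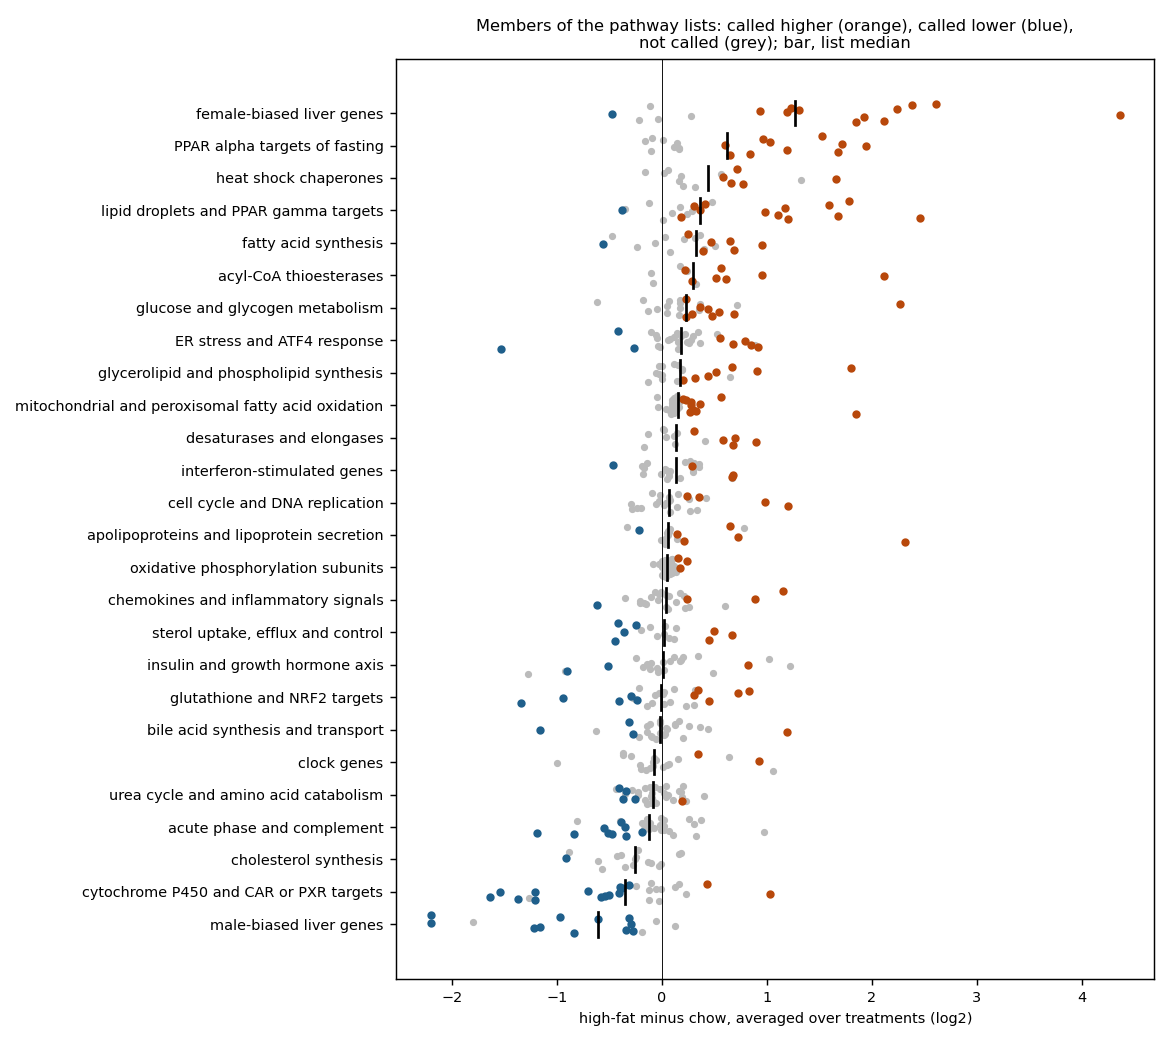
Diet difference (log2, averaged over treatments) of the tested members of the 26 pathway lists; each point is a gene and the bar is the list median. Female-biased genes have the highest median, 1.27, and male-biased genes the lowest, -0.61.

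Cholesterol synthesis genes were mostly negative but rarely called: 15 of 17 were below 0, the median was -0.26 and 1 was called. Msmo1, a sterol methyl oxidase, ran from 11.85 to 12.88 (median 12.31) on chow and from 10.42 to 12.13 (median 11.51) on high-fat diet. The ranges overlapped and penicillin high-fat 3 was lowest. It fell by 0.91 ± 0.25 (adjusted p = 0.0299), called in 5 of 12 fits without 1 array. The squalene epoxidase Sqle was at -0.89 ± 0.38 (adjusted p = 0.145) and Cyp51, a sterol demethylase, at -0.57 ± 0.18 (adjusted p = 0.059). The mean of the list on penicillin high-fat 3 was -0.91 relative to the mean of all arrays. The number of lower members was 0 to 5 in fits without 1 array. In 9 of the 12 it either fell from 1 to 0 or moved by over 1.5 times.

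Sterol uptake, efflux and control gave 3 higher and 4 lower of 15, with a median of 0.02, and 2 to 4 were lower in fits without 1 array. The cholesterol exporter Abca1 fell by 0.45 ± 0.07 and the exporter Abcg1 rose by 0.45 ± 0.08. Mylip, which marks the LDL receptor for degradation, rose by 0.50 ± 0.10, and Insig2, which retains SREBP in the endoplasmic reticulum, by 0.67 ± 0.18. The lipoprotein receptor Lrp1 fell by 0.36 ± 0.08, its other probe set standing at 0.17, and the regulator Srebf2 fell by 0.25 ± 0.06. Insig2 and Srebf2 were called in 4 of 12 and 7 of 12 fits without 1 array.

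Of 26 bile acid genes 1 was higher and 3 lower, with a median of -0.02. For this list too the share called was near that of all genes. In fits without 1 array 1 to 2 were higher and 2 to 4 lower. The list mean was -0.34 on penicillin chow 1, against 0.12 and 0.07 on penicillin chow 2 and 3. Cyp39a1, an oxysterol hydroxylase, rose by 1.19 ± 0.23. Cyp7b1, the racemase Amacr and the transporter Slco1a1 fell, the last 2 by 0.28 ± 0.06 and 0.31 ± 0.08, and Slco1a1 was called in 6 of 12 fits without 1 array. Cyp7a1, the rate-limiting enzyme of bile acid synthesis, ran from 8.48 to 12.39 (median 11.40) on chow and from 8.48 to 11.59 (median 10.50) on high-fat diet. The ranges overlapped almost wholly, and the difference was -0.63 ± 0.58 (adjusted p = 0.508).

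Glucose and glycogen genes rose in 9 of 23 cases and fell in 0, with a median of 0.23. The fructokinase Khk was at 12.23, 12.17 and 12.05 in control chow, 12.31, 12.19 and 12.16 in penicillin chow, 12.76, 12.65 and 12.68 in control high-fat and 12.75, 12.72 and 12.79 in penicillin high-fat. Both high-fat groups lay above chow and close to each other. The rise was 0.54 ± 0.05 (adjusted p = 0.000179), with 0.54 in control and 0.53 in penicillin mice. Pyruvate carboxylase, Pcx, rose by 0.44 ± 0.05, the glycogen branching enzyme Gbe1 by 0.69 ± 0.08, fructose bisphosphatase, Fbp1, by 0.23 ± 0.05 and the transcription factor Foxo1 by 0.48 ± 0.10. Ppp1r3g, a glycogen-targeting phosphatase subunit, ran from 4.19 to 4.82 (median 4.55) on chow, under the filter level. It ran from 4.84 to 8.39 (median 7.14) on high-fat diet, so it passed the filter through the high-fat arrays alone. Its difference was 1.24 in control and 3.30 in penicillin mice, with an interaction that was not called. Of the other 22 members 8 were higher and 0 lower, with a median of 0.20. Pck1, a control point of gluconeogenesis, was at 0.36 ± 0.15 (adjusted p = 0.143).

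Among other genes named for the size of their change, Rgs16, a regulator of G protein signalling, ran from 7.88 to 10.11 (median 9.06) on chow and from 10.98 to 12.17 (median 11.91) on high-fat diet. The ranges were apart and the rise was 2.70 ± 0.29, with 2 other probe sets from 2.86 to 3.22. Nipal1, of a magnesium transporter family, rose by 2.38 ± 0.30, the defensin gene Defb1 by 2.13 ± 0.21 and the transcription factor Zbtb16 by 2.08 ± 0.23. Other probe sets stood at 2.488 for Nipal1, at 1.175 for Defb1 and from 0.53 to 2.586 for Zbtb16. The probe set of the DNA repair gene Rad51b was at 4.38 to 5.30 on chow and 5.87 to 9.82 on high-fat diet. It passed the filter through the high-fat arrays alone, and the gene's other probe set stood at -0.11. The Rad51b difference was 1.37 in control and 4.38 in penicillin mice, and its interaction was not called (limma adjusted p = 0.195). The cytokine receptor Lifr fell by 1.39 ± 0.08, its other probe sets standing from -0.41 to -0.22. The adhesion molecule Cadm4 and the secreted kinase Pkdcc fell by 1.20 ± 0.12 and 1.03 ± 0.13, the other probe set of Pkdcc standing at -0.59.

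Of 33 genes of the urea cycle and amino acid breakdown 1 was higher and 4 lower, with a median of -0.09. The share called was near that of all genes, and 8 were lower without penicillin high-fat 2. Nags, which makes the activator of the urea cycle, fell by 0.34 ± 0.07, Cps1, its rate-limiting enzyme, by 0.26 ± 0.06, the glutamine transporter Slc38a3 by 0.41 ± 0.09 and cystathionine gamma-lyase, Cth, by 0.37 ± 0.06. Bckdhb, of branched-chain amino acid oxidation, rose by 0.19 ± 0.05 and was called in 7 of 12 fits without 1 array.

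The ER stress and ATF4 list was split, with 5 of 29 higher, 3 lower and a median of 0.18. In fits without 1 array 2 to 9 were higher, the most without penicillin chow 1 and the fewest without control high-fat 2. Asparagine synthetase, Asns, ran from 7.13 to 9.62 (median 7.92) on chow and from 6.29 to 7.01 (median 6.64) on high-fat diet. Chow was scattered, high-fat was tight and below it, and it fell by 1.54 ± 0.32 (adjusted p = 0.0096). The transcription factor Atf5 rose by 0.92 ± 0.13 and Herpud1, of ER-associated degradation, by 0.79 ± 0.18. Ddit3, a proapoptotic factor, and Chac1, which degrades glutathione, rose by 0.68 ± 0.17 and 0.85 ± 0.23, and Atf4 fell by 0.27 ± 0.07. These 3 were called in 8 of 12, 7 of 12 and 7 of 12 fits without 1 array. The lower count was 1 to 2 in fits without 1 array.

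Heat shock chaperones rose in 5 of 14 cases and fell in 0, with a median of 0.44, 0.73 in control and 0.13 in penicillin mice. Hspa1b, an inducible HSP70, was at 10.001, 9.95 and 9.48 in control chow, 11.43, 10.37 and 11.24 in penicillin chow, 12.85, 12.61 and 10.52 in control high-fat and 12.04, 12.42 and 12.01 in penicillin high-fat. Control high-fat 3 lay inside the chow range. The rise was 1.66 ± 0.35 (adjusted p = 0.00997). Hsph1 rose by 0.71 ± 0.16, and the cochaperone Dnajb1 by 0.77 ± 0.19. In fits without 1 array 3 to 7 members were higher. The list mean was 0.33 on penicillin chow 1, against -0.38 and 0.03 on penicillin chow 2 and 3. Of 20 clock genes 2 were higher, Nfil3 by 0.92 ± 0.27 and Rora by 0.35 ± 0.10, called in 4 of 12 and 2 of 12 fits without 1 array. The core clock gene Arntl was at 1.06 ± 0.33 (adjusted p = 0.0551).

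Several complement genes fell. Of 33 acute phase and complement genes 9 were lower and 0 higher, with a median of -0.12, and 7 to 9 were lower in fits without 1 array. Without penicillin chow 1 the count of higher members was 3. C8b, of the membrane attack complex, ran from 11.79 to 12.25 (median 12.06) on chow and from 9.94 to 11.56 (median 11.02) on high-fat diet. The 3 penicillin high-fat arrays were lowest and the ranges were apart. It fell by 1.19 ± 0.12 (adjusted p = 0.00029). Of the same complex C8a fell by 0.48 ± 0.06, C9 by 0.51 ± 0.09 and Hc, which encodes C5, by 0.35 ± 0.06. C1ra, of the classical pathway, fell by 0.35 ± 0.06. The mean of the list was 0.81 on penicillin chow 1, against -0.29 to 0.27 on the other chow arrays.

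Markers of macrophages and Kupffer cells, the resident macrophages of the liver, rose in 15 of 22 cases and fell in 0, with a median of 0.64 and all 22 positive. Adgre1, the classical macrophage surface marker, was at 7.81, 7.78 and 8.11 in control chow, 7.67, 7.25 and 7.03 in penicillin chow, 8.68, 8.54 and 8.48 in control high-fat and 8.77, 8.53 and 7.93 in penicillin high-fat. Penicillin high-fat 3 lay inside the chow range, and penicillin chow 2 and 3 were lowest. The rise was 0.88 ± 0.14 (adjusted p = 0.00283). Cd68 rose by 0.79 ± 0.13, Aif1 by 0.75 ± 0.10, the complement receptor Vsig4 by 0.69 ± 0.12, the complement component C1qc by 0.68 ± 0.12 and the Kupffer cell lectin Clec4f by 0.61 ± 0.09. The summed log2 level of the 22 was 176.6 to 192.3 in chow mice and 190.9 to 202.6 in high-fat mice. Penicillin chow 2 and 3, both low in 18S signal, had the lowest list means, -0.55 and -0.72, against -0.18 to -0.01 on the other chow arrays. In fits without 1 array 14 to 18 members were higher. In control mice, whose arrays were not low in 18S signal, the median was 0.49 and 0 members were called. In penicillin mice the median was 0.72 and 14 were called. A fit without the 3 arrays of low 18S signal leaves 1 array in penicillin chow. It cannot settle whether the rise depends on them.

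Sinusoidal endothelial markers rose in 9 of 15 cases and fell in 0, with a median of 0.33. Lyve1, a hyaluronan receptor, ran from 6.27 to 7.98 (median 7.18) on chow and from 8.66 to 8.95 (median 8.80) on high-fat diet. High-fat was tight and above chow, and the rise was 1.61 ± 0.24 (adjusted p = 0.00175). The endothelial receptors Clec14a and Gpr182 rose by 0.63 ± 0.09 and 0.41 ± 0.07. Penicillin chow 2 and 3 had the lowest list means here too, -0.38 and -0.40, against -0.15 to 0.01 on the other chow arrays. The summed log2 level of the 15 was 119.8 to 125.9 in chow mice and 126.6 to 130.5 in high-fat mice.

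Stellate cell and matrix genes rose in 10 of 21 cases and fell in 0, with a median of 0.33. The count was 7 to 11 in fits without 1 array. The collectin Colec11 rose by 0.66 ± 0.08, the pericyte gene Rgs5 by 0.83 ± 0.14, the basement membrane collagen Col4a1 by 0.61 ± 0.11 and the proteoglycan Lum by 0.57 ± 0.11. The fibrillar collagen Col3a1 rose by 0.83 ± 0.12, averaged from 0.10 in control and 1.57 in penicillin mice.

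Of other leukocyte markers, called were 0 of 11 T and NK cell, 0 of 7 B and plasma cell and 0 of 6 neutrophil markers in limma, with medians of -0.01, -0.06 and -0.17. Of the MHC class II and dendritic cell list 2 of 10 were higher, H2-DMa by 0.52 ± 0.14 and H2-Ab1 by 0.50 ± 0.14, called in 7 of 12 and 3 of 12 fits without 1 array. Of 24 chemokine and inflammation genes 3 were higher and 1 lower, with a median of 0.04. In fits without 1 array 2 to 7 were higher and 1 to 2 lower, and the higher count was 7 without penicillin chow 1. The adhesion molecule Vcam1 rose by 1.15 ± 0.16, with other probe sets from 0.04 to 0.65, the chemokine Cxcl9 rose by 0.89 ± 0.21, and Ccl9 fell by 0.62 ± 0.11. Of 24 interferon-stimulated genes 3 were higher and 1 lower, with a median of 0.13. In fits without 1 array 2 to 5 were higher and 0 to 2 lower. Of 24 cell cycle genes 4 were higher, 3 of them above the filter level on at least 3 arrays of each diet, with a median of 0.07, among them the inhibitor Cdkn1a, which rose by 1.20 ± 0.23, and Pcna, a replication factor, which rose by 0.23 ± 0.06.

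**Figure D3:**
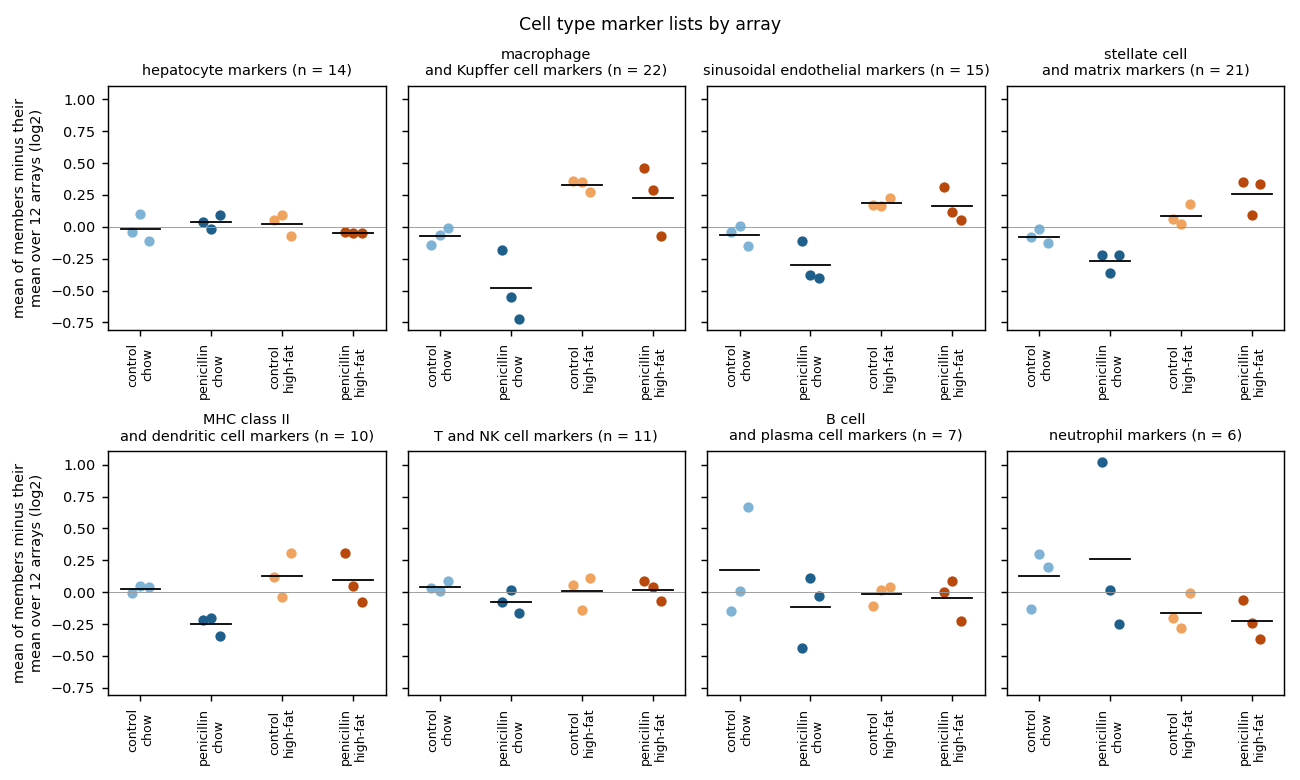
Mean of the tested members of cell type marker lists (vertical axis, log2 relative to the mean of 12 arrays) by group; each point is 1 array and each line a group mean of 3. Hepatocyte markers stay between -0.11 and 0.10, and macrophage markers lie at -0.72 to -0.01 in chow mice and -0.07 to 0.46 in high-fat mice.

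The diet effect was then read in each treatment, from 1 fit with a shared spread. In control mice 124 genes were called (0.899%), 90 higher (0.653%) and 34 lower (0.247%). In penicillin mice 1147 were called (8.32%), 886 higher (6.43%) and 261 lower (1.89%). Both sets shared 85 genes, all in the same direction, which is 68.5% of the control calls and 7.41% of the penicillin calls. A further 918 genes were called in the average and in neither treatment alone. Across all genes tested the differences of the treatments correlated at r = 0.663, a description over genes, which are not independent replicates. Among the 1997 called genes the median size was 0.285 in control and 0.408 in penicillin mice, and 73.9% were larger in penicillin mice, against 59.8% of all genes tested. The counts moved with single arrays: the penicillin count was 530 without penicillin high-fat 1 and the control count 303 without penicillin chow 1. Penicillin chow 1 is part of no control difference and enters the control count through the shared spread only.

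Whether a gene's diet effect differed between treatments was tested by the interaction. It called 6 genes (0.0435%), 5 positive (0.0363%) and 1 negative (0.00725%). Of the 13788 genes tested 842 had an unadjusted p under 0.05, a threshold that a share of 0.05 passes by chance. The 5 with a more positive difference in penicillin mice were Hao2, Cd36, Ifi27l2a, Cidea and Slc22a27, and Lifr fell further in penicillin mice. Next by p, and not called, were Col3a1 and 3 others. Pigp, of GPI anchor synthesis, was at 0.06 in control and 0.87 in penicillin mice, the endothelial factor Sox18 at 0.13 and 0.77, and Enc1, an actin-binding protein gene, at 0.50 and 1.54. The counting of calls in each treatment does not test a difference between them. Pcx and Atf5 were at 0.43 and 0.92 in control and at 0.44 and 0.91 in penicillin mice.

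**Figure D4:**
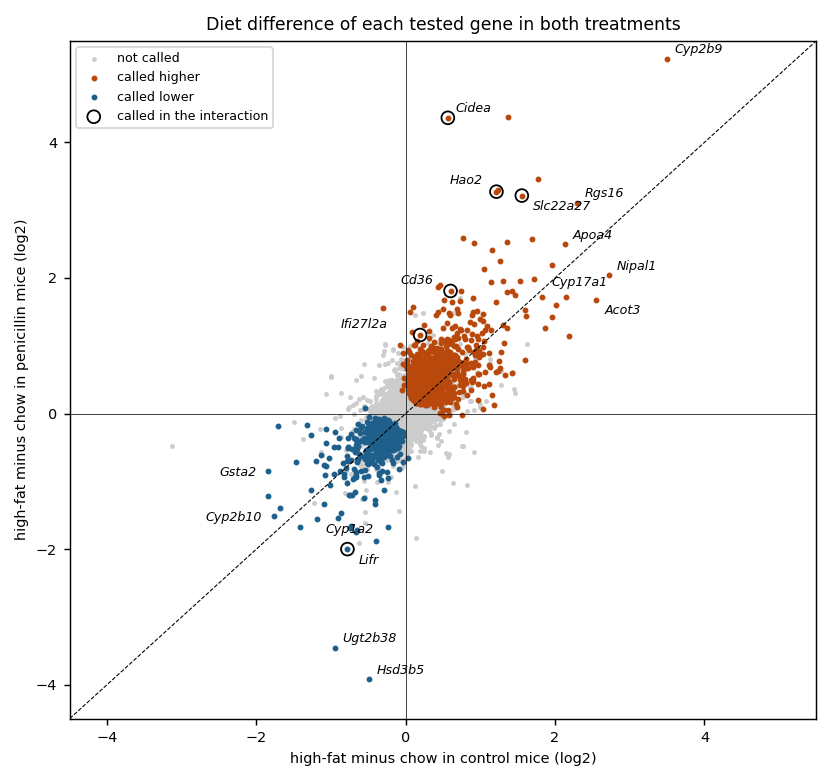
High-fat minus chow difference of the tested genes in control mice (horizontal axis, log2) and in penicillin mice (vertical axis, log2), with a line of equal differences. Over the 13788 genes r is 0.663, and Cidea and Hao2 lie above the line, at 4.36 and 3.27 in penicillin mice.

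**Figure D5:**
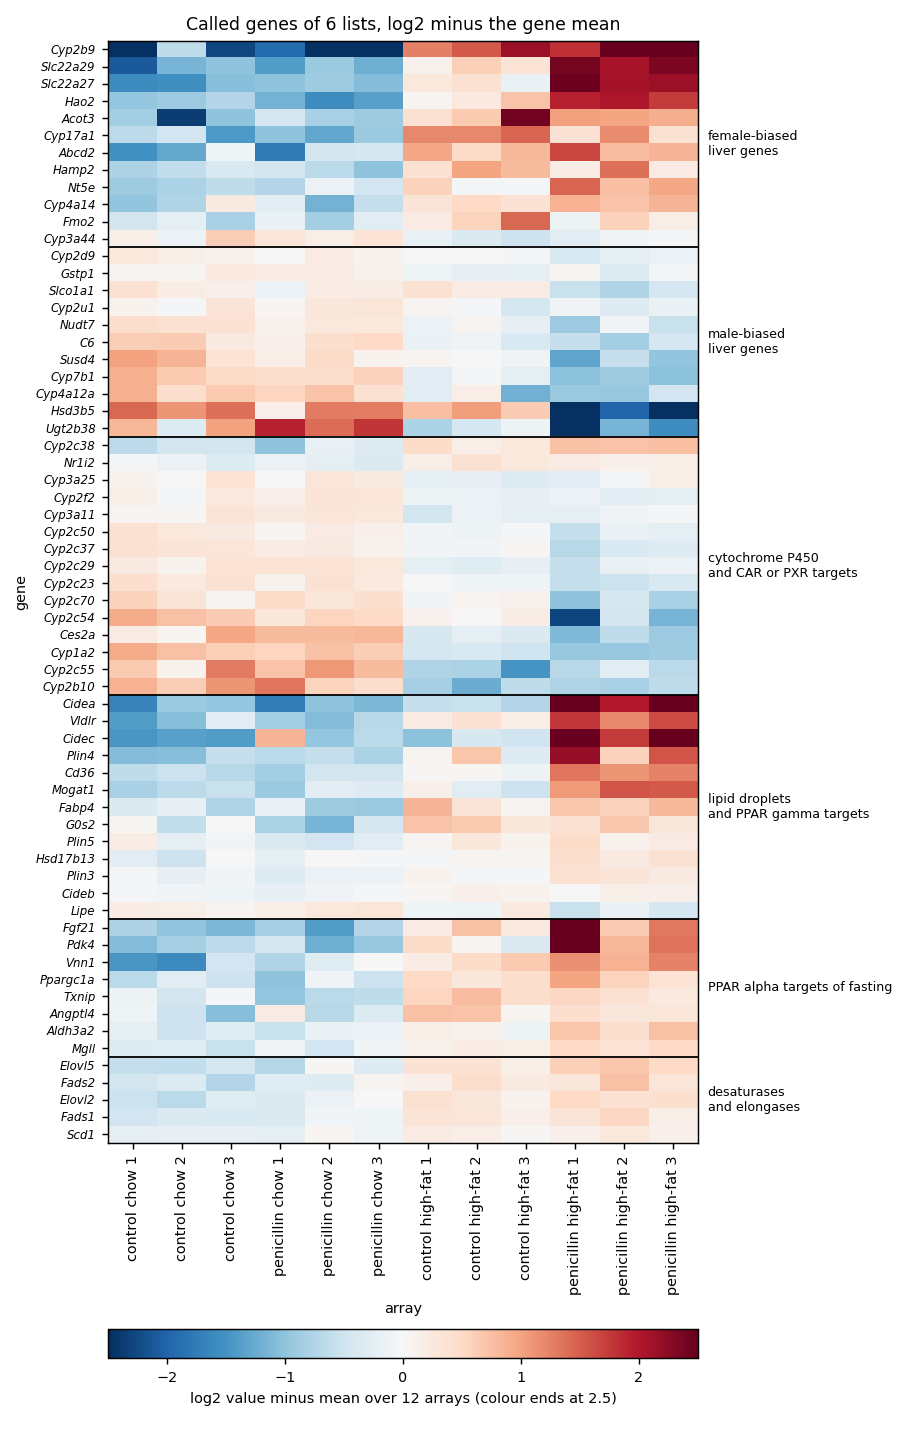
Log2 value minus the gene's mean over 12 arrays (colour, ending at 2.5 either way) of 64 called list members (rows), with arrays as columns. Cidea and Cd36 are highest in the 3 penicillin high-fat columns, and Hsd3b5 is lowest there.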

How the data were processed

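Liver RNA of 12 mice was measured on Affymetrix arrays. The authors deposited log2 expression values for 45101 probe sets, made by RMA in affy per the submitters' processing notes, with no version in the notes. RMA equalises the arrays, so every difference is relative to the bulk of genes, and array medians lay between 5.52 and 5.59. Intensities before normalization were not analysed here, and precision is limited by 3 arrays per group. Where the labels say no more than biological replicate, p-values measure the spread between these samples.

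Of the probe sets 34945 had 1 gene symbol, 932 several and 9160 none. Each of 18193 genes was read from its probe set of highest mean, and 13788 genes above log2 5 (percentile 40 of all values) on at least 3 arrays were tested. Group means were fitted with limma 3.58.1 in R 4.3.3 (lmFit, eBayes, 8 residual degrees of freedom), for the average, each treatment and the interaction, with Benjamini-Hochberg adjustment and a threshold of 0.05. The fit of the average was tested on simulated data with independent noise, an equal diet shift in both treatments and no outlying array. The median SE of an averaged difference was 0.0736. Members and gene lists (26 pathway, 12 cell type) were chosen with earlier results of these data known, and 739 of 821 list members had a probe set.

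Named genes are the 15 largest called and non-overlapping changes in each direction, up to 6 members per list by p, up to 10 interaction genes and fixed regulators. Cyp2b13, Cyp2c29, Cyp3a44 and Nr1i2 were named after their values were seen. Alternatives were other normalizations, filters, probe sets and models, an 18S covariate, left-out arrays, and the replicate number as a block. List counts under the alternatives were added after the data were seen.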

Additional observations from a re-analysis of the deposited data

Results flagged for a closer look

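For 6 genes the diet effect differed between control and penicillin mice in limma's interaction test, with 842 of 13788 genes at an unadjusted p under 0.05. Hao2, a peroxisomal hydroxyacid oxidase, was at 1.22 in control and 3.27 in penicillin mice, with an interaction of 2.06 ± 0.22 (adjusted p = 0.0114). Cd36, the fatty acid transporter, was at 0.60 and 1.81, with 1.21 ± 0.15 (adjusted p = 0.0323). Ifi27l2a, an interferon-stimulated gene, was at 0.19 and 1.16, with 0.97 ± 0.13 (adjusted p = 0.0323). Cidea, the lipid droplet fusion gene, was at 0.56 and 4.36, with 3.80 ± 0.53 (adjusted p = 0.0389). Slc22a27, of the organic anion transporter family, was at 1.55 and 3.22, with 1.66 ± 0.24 (adjusted p = 0.0418). Lifr, the cytokine receptor, went the other way, at -0.78 and -2.001, with -1.22 ± 0.16 (adjusted p = 0.0323).

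All 3 penicillin high-fat arrays lay above all 3 control high-fat arrays for the first 5 genes and below them for Lifr. The 6 genes were picked on these same arrays, so this separation adds no support. On chow Cidea, Hao2 and Slc22a27 lay near or under the filter level, and the last 2 passed the filter through the high-fat arrays alone. Ifi27l2a was lower on penicillin chow, at 6.93, 7.02 and 6.94, than on control chow, at 7.53, 7.67 and 7.73. In the 12 fits that left out 1 array, the interaction passed in 9 for Hao2, 6 for Cd36, 4 for Lifr, 3 for Ifi27l2a, 3 for Slc22a27 and 2 for Cidea.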

How the results depend on the processing

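The averaged diet effect called 697 genes (518 higher, 179 lower) at an adjusted p of 0.01 and 373 (288 and 85) at 1.5-fold or more, both by construction smaller. With array weights 1083 genes were lower. Without 1 array the averaged count ran from 1356 to 2077, that of higher genes from 939 to 1382 and that of lower genes from 413 (without control high-fat 2) to 695, with 417 without control high-fat 1 and 443 without penicillin high-fat 1. Control mice gave 571 calls with array weights, 70 with the replicate block, 289 without penicillin chow 1 and penicillin high-fat 1, and 21 to 303 without 1 array: 26 and 44 without control chow 1 and 2, 22 and 21 without control high-fat 1 and 2, 69 without penicillin chow 3, 78 without penicillin high-fat 3 and 303 without penicillin chow 1. Penicillin mice gave 482 from their 6 arrays alone, and control mice 168 from theirs. Without penicillin chow 1 and penicillin high-fat 1 the penicillin count was 652. It was 530 to 1114 without 1 array, lowest without penicillin high-fat 1, and 743 without penicillin chow 3. The interaction gave 1 call with the 18S covariate, 15 with array weights, 2 with the block, 3 with the stricter filter, 24 without the 3 arrays of low 18S signal, and 0 to 10 without 1 array, with 0 without penicillin high-fat 1, without control chow 2 or without penicillin chow 3. Without the low-18S arrays penicillin chow is 1 array, so the interaction count of that fit cannot show whether the interaction depends on them. In fits without 1 array, penicillin arrays enter the control counts through the shared spread only. What caused the other moves was not tested. Same-numbered mice did not deviate together (18 pairs, r from -0.23 to 0.172), so the block, with 1720 averaged calls, is no pairing. Median centring raised the share of higher calls from 66.5% to 74.4%. Signs turned for Lrp1 (0.17) with the probe set of largest variance and, without the low-18S arrays, for Cyp7a1 (0.00) and Mlxipl (0.02). Ghr stood between -0.03 and 0.05 without 1 array, at 0.00 with array weights, cyclic loess or without control high-fat 2 and at -0.02 without penicillin chow 1 and penicillin high-fat 1, and its difference of 0.02 has no settled sign. Signals near the filter level limit fold sizes.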

Other observations

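Some genes outside the lists stood out, and the 3 groups that follow were put together after their values were seen, so their counts are descriptions. Of 15 genes of the central vein side of the lobule and of Wnt signalling 4 were lower and 1 higher, with a median of -0.28. Besides Cyp1a2, the stem cell marker Lgr5 was at -0.92 ± 0.17 (limma adjusted p = 0.00462), the ubiquitin ligase Rnf43 at -0.93 ± 0.27 (adjusted p = 0.041) and the transcription factor Tbx3 at -0.87 ± 0.22 (adjusted p = 0.0233). The amino acid transporter Slc1a4 was higher, at 0.32 ± 0.10. Rnf43, Tbx3 and Slc1a4 were called in 5 of 12, 8 of 12 and 3 of 12 fits without 1 array. Glutamine synthetase, Glul, the textbook marker of that zone, was at 0.04 ± 0.06, and Cyp2e1 at -0.01 ± 0.04.

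Of 17 immediate early genes, which respond within minutes to signals, 6 were higher and 0 lower, with a median of 0.35. Klf10 was at 1.19 ± 0.10 and the phosphatase Dusp1 at 1.20 ± 0.16, both without overlap between diets, and Jun was at 1.17 ± 0.15 and the matricellular gene Ccn2 at 1.19 ± 0.24. Fos and Egr1 were at 0.85 ± 0.41 and -0.23 ± 0.47 and not called. Of 6 aquaporins, which are water channels, 2 were higher, Aqp4 at 1.77 ± 0.27 (adjusted p = 0.00183) and Aqp8 at 1.60 ± 0.28 (adjusted p = 0.00408), with a median of 0.15.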
